A study of Mus musculus with 6 samples.

Results

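The 9 genes described here encode the proximal signalling machinery of the T cell receptor in CD4 T cells: the coreceptor (Cd4), the CD3 chains (Cd3d, Cd3e and Cd3g), the zeta chain (Cd247), the kinases Lck and Zap70, and the adaptors Lat and Lcp2. They were listed by name for their place in the pathway, with no threshold on a measured value, from a table of 47729 gene identifiers, and all 9 passed the filter on low counts that left 15780 genes to test. The list was made with earlier results of these data known. Total RNA of sorted mouse spleen cells had been sequenced in bulk, giving 6 libraries in 3 groups of 2. OFF cells came from RBPJind mice that had received doxycycline (Dox) in the drinking water for 3 weeks and then none for 1 week while the T cells matured in the periphery. ON cells came from RBPJind mice that had received Dox for 4 weeks. In these mice RBPJ, the nuclear protein that Notch needs to reach its target genes, depends on Dox, and the labels call ON cells Notch responsive and OFF cells unresponsive during maturation. OFF and ON cells were sorted as CD3+CD4+CD25-CD45RBint, which the labels call immature naive T cells. WT cells, taken from wild type animals, were the mature naive counterpart in the gate CD3+CD4+CD25-CD45RBhi, and their label also names Dox, with no duration. All 3 groups were thus gated on the protein products of genes described here. OFF and ON shared genotype and gate and differed in the last week of Dox, whereas both RBPJind groups differed from WT in genotype, in the CD45RB gate and in maturity at once, and these cannot be told apart. The labels do not say what drives the inducible construct, nor whether both libraries of a group came from different mice, so p-values measure the spread between these samples, which may be technical.

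The T cell receptor has no kinase domain of its own. When the receptor meets its peptide ligand, CD4 brings the Src family kinase LCK to the complex, LCK phosphorylates tyrosine motifs (ITAMs) in the CD3 and zeta chains, and the Syk family kinase ZAP70 docks there and is activated. ZAP70 then phosphorylates the membrane adaptor LAT and the cytosolic adaptor SLP-76, the product of Lcp2, which together hold the enzymes that start calcium, Ras and NF-kappaB signalling.

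Libraries held between 17025551 and 19319183 counts assigned to genes, and each of the 9 genes had between 2091 and 21397 counts in every library. Values are CPM, counts relative to a library size scaled by the TMM method, ± is the SD of the 2 libraries of a group unless an SE is named, and a gene is called at a Benjamini-Hochberg adjusted p under 0.05 over all tested genes in edgeR's quasi-likelihood test. Rbpj had 29.8 and 31.7 CPM in OFF, against 98.2 and 79.6 CPM in ON and 36.1 and 35.3 CPM in WT, and the Notch target Dtx1 had 194.7 and 145 CPM in OFF, against 491.5 and 562 CPM in ON and 197.6 and 197.7 CPM in WT. Both genes were highest in the 2 ON libraries. OFF was not called against WT for either, with an adjusted p of 0.422 for Rbpj and 0.457 for Dtx1. Markers of T cell identity (Trac, Cd3e, Cd4, Cd5, Cd28 and Bcl11b) were abundant in all libraries, with sums of 2440 to 2657 CPM in OFF, 2297 to 2309 CPM in ON and 2070 to 2267 CPM in WT. Cd3e and Cd4 are themselves among the 9 genes, so these sums are not separate from them. Within this list Cd28 was called lower in ON and Cd5 higher in OFF, each against WT. The ON libraries differed from each other more than the libraries of OFF or WT did, with chi-square values divided by their degrees of freedom of 18.9 in OFF, 66.6 in ON and 9.61 in WT. In ON library 2 a single annotated small RNA gene, Gm23935, took 3.59% of gene counts, against 9.27% in ON library 1 and between 12.5% and 13.8% in the OFF and WT libraries. Calls among the genes described here that were lost without an ON library are named as such.

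Cd4 (ENSMUSG00000023274, GRCm38 chr6:124864692-124888221, minus strand) encodes the coreceptor that binds MHC class II. It had 649 and 702 CPM in OFF, 691 and 644 CPM in ON, and 644 and 604 CPM in WT. OFF and ON overlapped, and the lower ON library stood level with the higher WT library to the nearest whole CPM. Cd4 differed least between OFF and ON of the 9 genes, with a log2 fold change of 0.02 ± 0.12 (SE) and an adjusted p of 0.953.

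The 3 CD3 genes lie together on chromosome 9. Their products pair as gamma-epsilon and delta-epsilon dimers that flank the antigen-binding chains and carry ITAMs. Cd3d (ENSMUSG00000032094, chr9:44981786-44987339, plus strand) had 164 and 177 CPM in OFF, 175 and 202 CPM in ON, and 158 and 148 CPM in WT. Cd3e (ENSMUSG00000032093, chr9:44998740-45009627, minus strand) had 357 and 427 CPM in OFF, 417 and 421 CPM in ON, and 328 and 307 CPM in WT. For both genes every OFF and ON library lay above both WT libraries, and OFF overlapped ON. Cd3g (ENSMUSG00000002033, chr9:44969572-44980431, minus strand) had 492 and 507 CPM in OFF, 534 and 1060.4 CPM in ON, and 473 and 447 CPM in WT. A single library stood apart: Cd3g in ON library 2 was far above all others, and the other 5 lay close together in the order ON, OFF, WT.

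Cd247 (ENSMUSG00000005763, chr1:165788681-165877277, plus strand) encodes the zeta chain, the receptor's main carrier of ITAMs. It had 322 and 311 CPM in OFF, 332 and 389 CPM in ON, and 308 and 312 CPM in WT. OFF and WT overlapped, and both ON libraries lay above them. Over 3007 bases the exons of Cd247 overlap those of Pou2f1 on the opposite strand, which had between 48.5 and 90.4 CPM. Strand use in counting is not given in the sources used here, so the values of Cd247 are uncertain to that extent.

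Lck (ENSMUSG00000000409, chr4:129548344-129573641, minus strand), the kinase that phosphorylates the ITAMs, had 484 and 490.2 CPM in OFF, 479.8 and 607 CPM in ON, and 396 and 408 CPM in WT. ON library 2 was again the highest, ON library 1 was level with OFF, and both WT libraries were the lowest. Zap70 (ENSMUSG00000026117, chr1:36761798-36782818, plus strand), the kinase that docks on phosphorylated ITAMs, had 156 and 152 CPM in OFF, 180.2 and 172 CPM in ON, and 125 and 126 CPM in WT. As for Cd3g, the 3 groups did not overlap, in the order ON, OFF, WT, but here the 2 libraries of each group stood close together.

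Lat (ENSMUSG00000030742, chr7:126363824-126369570, minus strand), the membrane scaffold, had 302 and 273 CPM in OFF, 339.8 and 388 CPM in ON, and 265 and 273 CPM in WT. Both ON libraries lay above all others, and OFF overlapped WT. Lcp2 (ENSMUSG00000002699, chr11:34046920-34092295, plus strand), the SLP-76 adaptor, had 249.6 and 262 CPM in OFF, 277 and 253 CPM in ON, and 217 and 226 CPM in WT. OFF and ON overlapped, and both lay above WT.

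**Figure D1:**
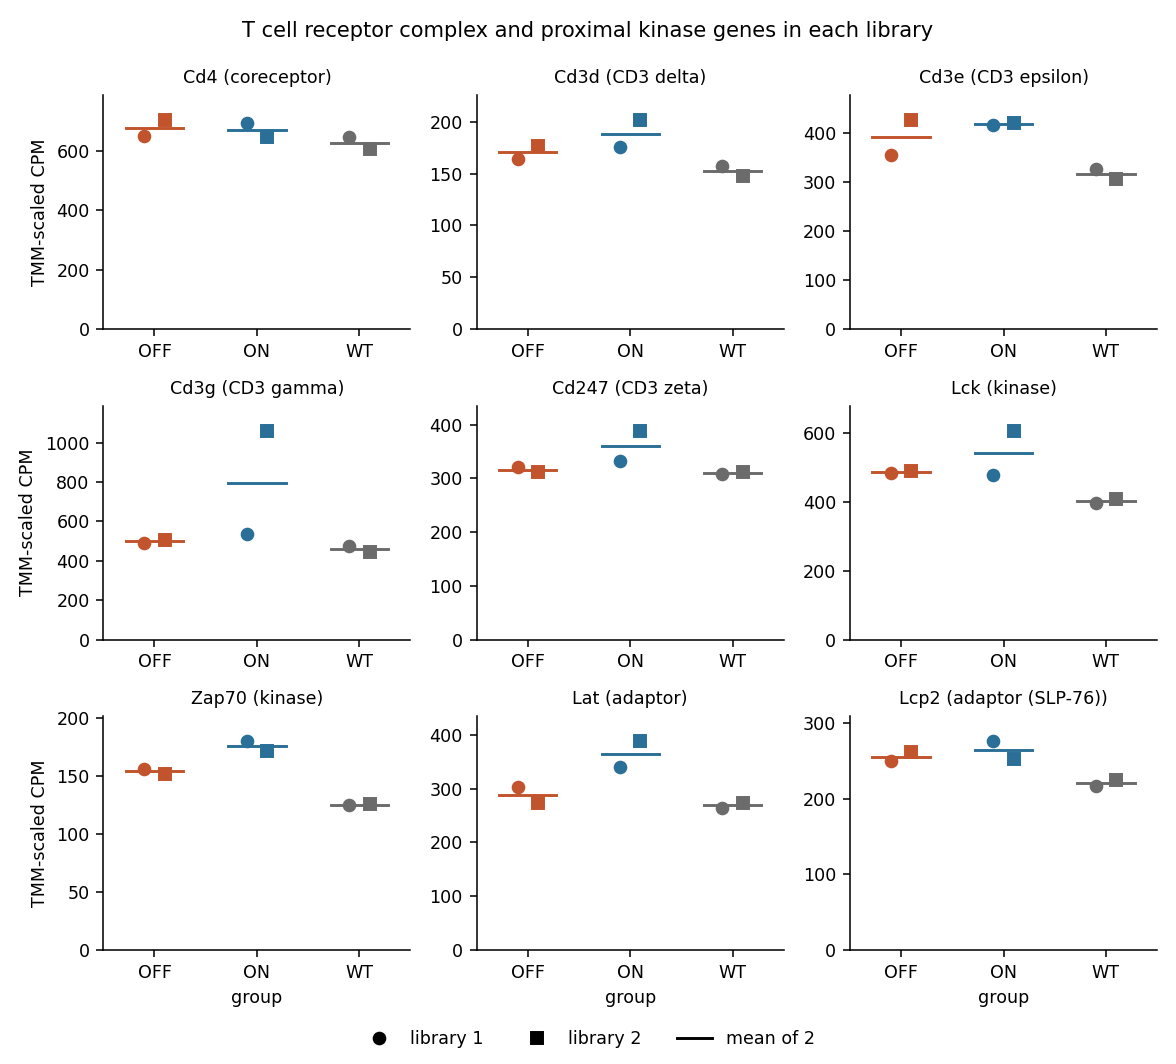
TMM-scaled CPM of the 9 genes (vertical axis, from 0, scaled for each gene) in each library of OFF, ON and WT; circles are library 1, squares library 2 and lines the mean of 2. Most genes varied little within a group, and Cd3g in ON library 2 stood at 1060.4 CPM, against 447 to 534 CPM in the other 5 libraries.

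Levels of different genes were compared per kilobase of annotated exon, since longer transcripts give more reads. Over the 6 libraries Cd3g averaged 179 ± 71.7 CPM per kilobase (SD, n = 6), Lck 163 ± 25.8, Cd4 163 ± 8.87 and Lat 111 ± 17.5. Then followed Cd3d at 94.0 ± 10.3 CPM per kilobase, Cd3e at 92.2 ± 12.9, Cd247 at 61.8 ± 5.76, Lcp2 at 55.4 ± 4.99 and Zap70 at 50.7 ± 7.62. Cd3g, Lck and Cd4 did not separate: Cd3g was above Lck in 2 of 6 libraries, and Lck above Cd4 in 2 of 6. Cd4 led these 3 in OFF and in WT and Cd3g led them in ON, and the order of the last 3 genes, Cd247, Lcp2 and Zap70, was the same in the means of all 3 groups. Cd3d was above Cd3e in 4 of 6 libraries, Cd247 above Lcp2 in 5 and Lcp2 above Zap70 in 5, whereas Cd4 was above Lat, Lat above Cd3d and Cd3e above Cd247 in all 6.

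**Figure D2:**
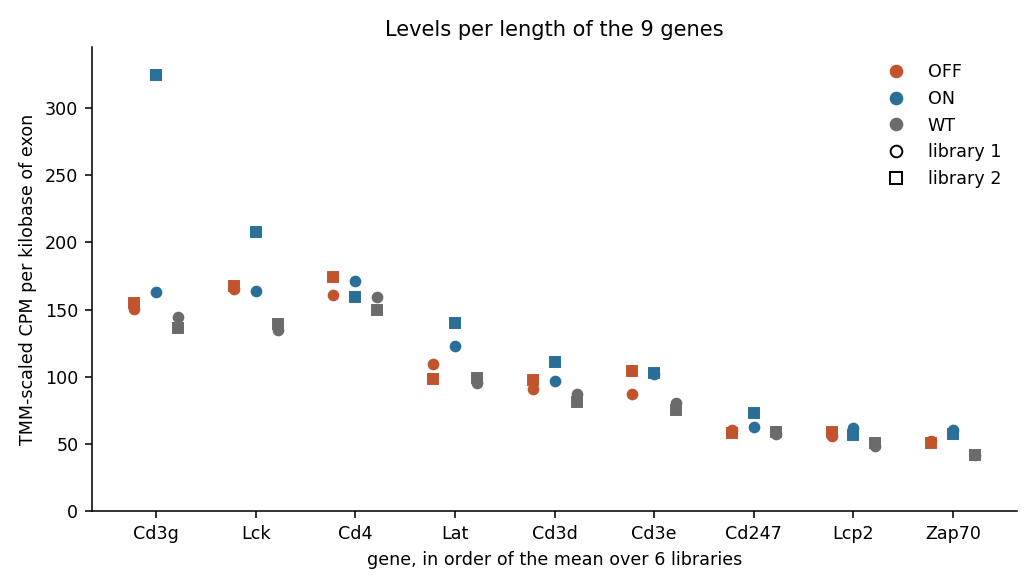
TMM-scaled CPM per kilobase of exon (vertical axis, from 0) of each gene in order of its mean over 6 libraries; colour gives the group and shape the library. Cd3g, Lck and Cd4 form the highest set, with 324 CPM per kilobase for Cd3g in ON library 2, and Zap70 is the lowest at 41.8 to 60.2 CPM per kilobase.

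Within a library a ratio of genes does not depend on how libraries are scaled. Per kilobase, Cd3d stood at 1.03 ± 0.0697 times Cd3e (SD, n = 6), between 0.932 and 1.08. Zap70 stood at 0.551 ± 0.0424 times Cd3e, between 0.485 and 0.596. Cd3g, the partner of Cd3e in the gamma-epsilon dimer, stood between 1.48 and 1.82 times Cd3e in 5 libraries and at 3.14 times in ON library 2. The ratio of Cd3g was more spread over the libraries than that of Cd3d or Zap70, and a single library held that spread. With the longest transcript in place of all exons, Cd3d stood at 0.720 times Cd3e, so the size of these ratios depends on the length used.

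OFF and ON were compared to set cells without Dox in the last week of maturation beside cells that kept it. The labels call OFF cells Notch unresponsive and ON cells responsive, and Dox itself cannot be told apart from this. None of the 9 was called, against 1.03% of all tested genes called in this comparison; 2 had an unadjusted p under 0.05, against 19.1% of all genes, and neither DESeq2 nor limma-voom called any. The largest difference was that of Cd3g, at 499.5 ± 10.7 CPM in OFF and 797 ± 372 CPM in ON, with a log2 fold change of -0.67 ± 0.27 (SE; adjusted p = 0.242). Without ON library 1 it was -1.08 ± 0.11 (adjusted p = 0.00316), and without ON library 2 it was -0.11 (adjusted p = 0.694), so the value of Cd3g here is set by a single library. Lat came next, at 288 ± 20.7 CPM in OFF and 364 ± 34.3 CPM in ON, with a log2 fold change of -0.34 ± 0.12 (adjusted p = 0.176). For the other 7 genes the log2 fold change lay between -0.19 (Zap70 and Cd247) and 0.02 (Cd4). Both OFF libraries lay below both ON libraries for 4 of 9 genes, Cd3g, Cd247, Zap70 and Lat, as was so for 23.3% of all tested genes, and above them for none of the 9, against 23.4%.

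ON and WT were compared to set Notch-responsive immature cells beside mature wild type cells. Zap70 and Lat rose: 2 of 9 genes were called, both higher in ON, where 14.8% of all tested genes were called in either direction and 9.68% as higher. Zap70 averaged 176 ± 6.05 CPM in ON and 125 ± 0.571 CPM in WT, 1.40-fold higher, with a log2 fold change of 0.49 ± 0.11 (SE; adjusted p = 0.0184). Lat averaged 364 ± 34.3 CPM in ON and 269 ± 6.03 CPM in WT, 1.35-fold higher, with a log2 fold change of 0.44 ± 0.12 (adjusted p = 0.0410). Neither call held with 1 WT library: without WT library 1 or WT library 2 the adjusted p was 0.167 and 0.163 for Zap70 and 0.259 and 0.213 for Lat, at log2 fold changes of 0.49 and 0.51 and of 0.42 and 0.48. Lat was also not called without ON library 2 (adjusted p = 0.0858), with upper quartile scaling (0.0797) or with protein-coding genes only (0.0687).

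Lck and Cd3e lay just past the threshold. Lck averaged 544 ± 90.3 CPM in ON and 402 ± 8.46 CPM in WT, with a log2 fold change of 0.44 ± 0.13 (SE; adjusted p = 0.0571), and Cd3e averaged 419 ± 2.99 CPM in ON and 317 ± 14.8 CPM in WT, with 0.40 ± 0.13 (adjusted p = 0.0607). At an unadjusted p under 0.05 stood 7 of the 9 genes, against 30.5% of all tested genes. DESeq2 called both Lck and Cd3e, with adjusted p of 0.0291 for Lck and 0.0448 for Cd3e. Cd3g had a log2 fold change of 0.79 ± 0.28 (adjusted p = 0.0982), which was 1.23 without ON library 1 (adjusted p = 3.89e-04) and 0.24 without ON library 2 (adjusted p = 0.340). The remaining values were 0.30 for Cd3d, 0.26 for Lcp2, 0.22 for Cd247 and 0.10 for Cd4, with adjusted p between 0.126 and 0.619. Both ON libraries lay above both WT libraries for 9 of 9 genes, for Cd4 by less than 1 CPM, and so they did for 29.8% of all tested genes. The median log2 fold change of the 9 was 0.40, against -0.02 over all tested genes, and Cd4 differed least and Cd3g most.

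OFF and WT differ in genotype, gate and maturity, as ON and WT do, and they share the WT libraries with that comparison. OFF cells had also gone without Dox for the last week and are labelled Notch unresponsive. The WT label names Dox with no duration, so OFF and WT may differ in Dox as well. None of the 9 genes was called, against 6.83% of all tested genes; 2, Cd3e and Zap70, had an unadjusted p under 0.05, against 22.1% of all genes, and DESeq2 and limma-voom called none. Cd3e averaged 392 ± 49.7 CPM in OFF and 317 ± 14.8 CPM in WT, with a log2 fold change of 0.30 ± 0.13 (SE; adjusted p = 0.190). Zap70 averaged 154 ± 3.03 CPM in OFF and 125 ± 0.571 CPM in WT, with 0.30 ± 0.11 (adjusted p = 0.147), beside 0.49 ± 0.11 in ON against WT. Lat averaged 288 ± 20.7 CPM in OFF and 269 ± 6.03 CPM in WT, with 0.10, beside 0.44 in ON against WT. The direct comparison of OFF with ON, given above, called neither gene. Both OFF libraries lay above both WT libraries for 7 of 9 genes, all but Cd247 and Lat, against 29.8% of all tested genes, and the median log2 fold change of the 9 was 0.16, against 0.01 over all tested genes.

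**Figure D3:**
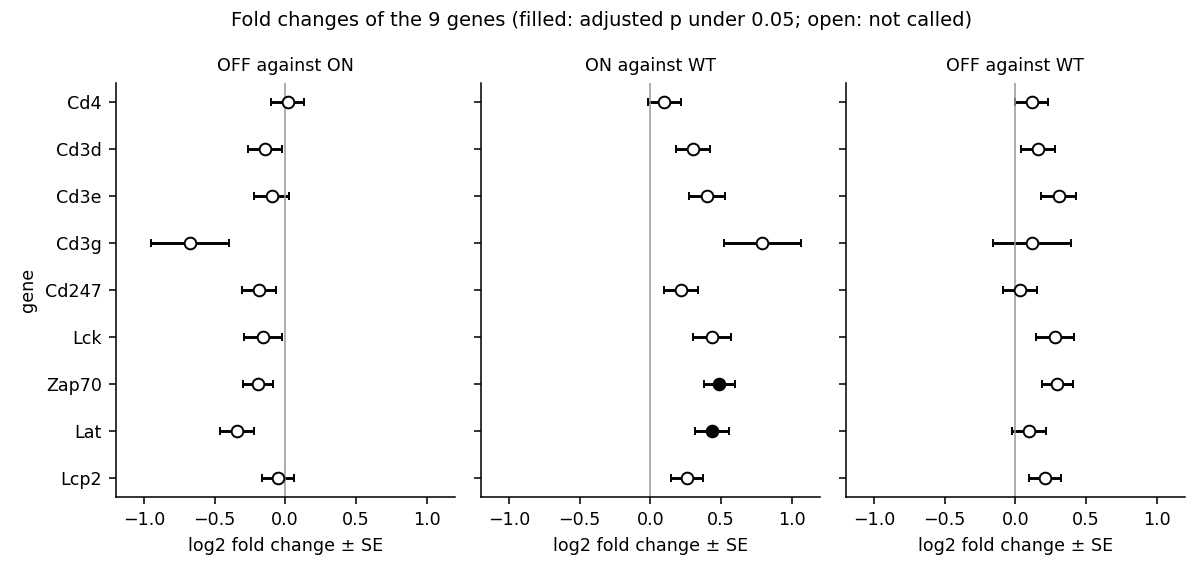
Log2 fold change ± SE of the 9 genes in OFF against ON, ON against WT and OFF against WT (horizontal axes; edgeR; filled points are called, open points are not). Only Zap70 at 0.49 and Lat at 0.44 in ON against WT are filled, and the SE of Cd3g is about 0.27 to 0.28, against 0.109 to 0.134 for the other 8 genes.

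In bulk RNA a lower share of cells of a type and less RNA per cell cannot be told apart, and markers of other cells differed between the RBPJind groups and WT. Of the regulatory T cell markers Foxp3, Il2ra and Ikzf2, 3 of 3 were called higher in OFF and in ON than in WT, although the gate removed CD25+ cells, and their summed level was 169 to 326 CPM in OFF, 111 to 174 CPM in ON and 14.0 to 14.8 CPM in WT. Of 2 CD8 T cell markers Cd8a was called in both, at 3.06 and 4.09 CPM in OFF, 5.72 and 5.85 CPM in ON, and 0.419 and 1.28 CPM in WT, while Cd8b1 stood between 11.1 and 17.9 CPM in all 6 libraries. The proliferation gene Mki67, looked at after its values were seen, had 277 and 475 CPM in OFF, 626 and 241 CPM in ON, and 48.8 and 38.4 CPM in WT. The part of these cells in the values of the 9 genes was not tested.

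Cd3g was among the genes most unlike between the ON libraries. Of 1658 genes with a mean of at least 100 CPM, 8 differed between ON library 2 and ON library 1 by at least as much as Cd3g, itself included, whose ratio was 1.99. Of these 8 only Cd3g and the ribosomal RNA gene CT010467.1, at 1311 CPM in ON library 2 against 68.4 CPM in ON library 1, were higher in library 2. The others were lower there: Mki67, the histone genes Hist1h1e, Hist1h1d and Hist2h2ac, and the small RNA genes Gm23935 and Gm24270. For the other 8 genes of the receptor machinery the ratio of ON library 2 to ON library 1 was 1.27 for Lck, 1.17 for Cd247, 1.15 for Cd3d, 1.14 for Lat, 1.01 for Cd3e, 0.953 for Zap70, 0.932 for Cd4 and 0.914 for Lcp2. Neither Cd3d nor Cd3e, its neighbours on the chromosome and partners in the complex, shared the difference of Cd3g. Whether it belongs to the cells of that sample or to the library was not tested.

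**Figure D4:**
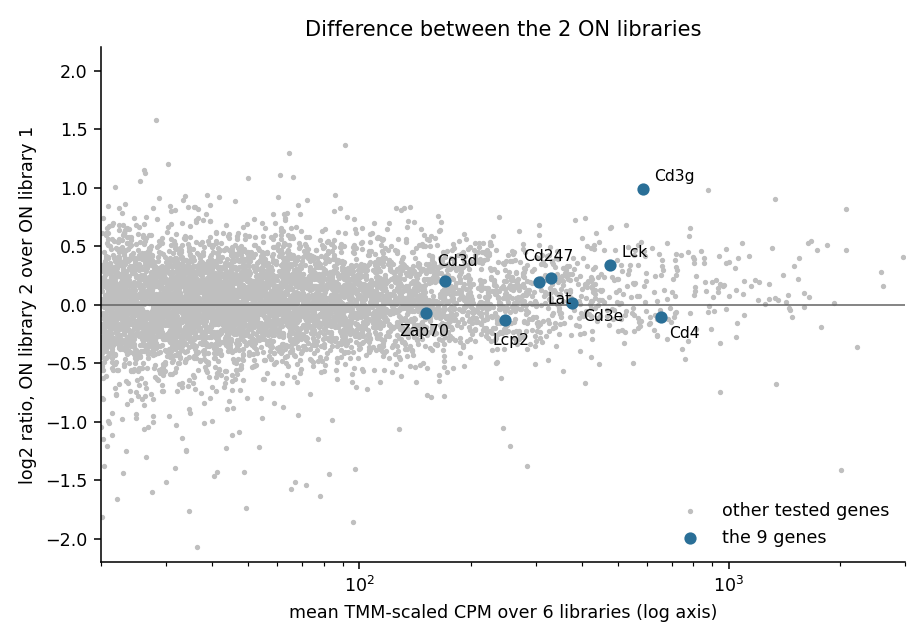
Log2 ratio of ON library 2 over ON library 1 (vertical axis) against mean TMM-scaled CPM over 6 libraries (log axis) for the 9 genes (blue) and other tested genes (grey); genes beyond the axes are not drawn. Cd3g lies near the upper edge of the cloud at its level with a log2 ratio of 0.99, and the other 8 genes lie within it.

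The starts of Cd3g and Cd3d point away from each other and lie 1355 bases apart, and their promoters are shown because the genes share this interval while their values in ON library 2 did not move together. Each window runs from 250 bases before to 50 after the start (RefSeq, GRCm38.p6), 5′ to 3′ on the gene's strand; Cd3g is at chr9:44980382-44980681, minus strand, and Cd3d at chr9:44981536-44981835, plus strand. Capitals mark the E-box CANNTG, the letters read by E proteins such as E2A and HEB.
Cd3g: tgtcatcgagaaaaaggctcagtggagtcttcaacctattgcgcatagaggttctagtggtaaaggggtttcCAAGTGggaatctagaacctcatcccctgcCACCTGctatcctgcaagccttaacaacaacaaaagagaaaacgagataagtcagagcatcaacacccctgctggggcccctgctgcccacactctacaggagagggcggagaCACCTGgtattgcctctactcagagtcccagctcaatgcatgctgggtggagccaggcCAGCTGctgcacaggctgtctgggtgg
Cd3d: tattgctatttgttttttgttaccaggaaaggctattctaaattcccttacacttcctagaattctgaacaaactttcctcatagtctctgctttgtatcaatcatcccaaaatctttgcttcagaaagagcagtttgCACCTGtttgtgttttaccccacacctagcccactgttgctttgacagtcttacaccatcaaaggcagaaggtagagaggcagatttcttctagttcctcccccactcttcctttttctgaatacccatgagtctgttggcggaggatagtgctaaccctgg
The Cd3g window held 4 E-boxes and the Cd3d window 1. Windows were found for 8 of the 9 genes, 11 in all, since Lck has 2 annotated starts and Zap70 3. All 11 held an E-box, as did 72.3% of 32851 mouse promoter windows of the same length.

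The promoters of the 2 called genes are shown with the letters TGTGGGAA, or TTCCCACA on the other strand, in capitals, a sequence bound by RBPJ. This motif was added to the search after the promoters had been seen, so its count among the windows is no test. Both genes were called in ON against WT only. Between OFF and ON neither was called, with adjusted p of 0.369 for Zap70 and 0.176 for Lat. Zap70 is the first of its 3 windows, chr1:36761548-36761847, plus strand, and Lat is chr7:126369519-126369818, minus strand.
Zap70: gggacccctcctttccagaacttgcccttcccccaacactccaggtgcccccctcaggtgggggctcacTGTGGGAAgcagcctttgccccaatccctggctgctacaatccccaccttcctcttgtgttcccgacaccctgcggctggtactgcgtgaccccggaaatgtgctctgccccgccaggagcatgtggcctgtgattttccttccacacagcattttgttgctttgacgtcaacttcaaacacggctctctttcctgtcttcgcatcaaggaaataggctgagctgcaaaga
Lat: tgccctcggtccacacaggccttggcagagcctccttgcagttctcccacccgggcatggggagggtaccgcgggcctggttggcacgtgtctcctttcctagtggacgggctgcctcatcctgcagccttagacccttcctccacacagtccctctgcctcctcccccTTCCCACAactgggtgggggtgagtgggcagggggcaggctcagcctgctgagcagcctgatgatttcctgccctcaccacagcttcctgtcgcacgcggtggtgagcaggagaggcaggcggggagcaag
The letters began at position -181 relative to the start in Zap70 and at -81 in Lat, where their last 2 bases are also the first 2 of an E-box. They stood in 2 of the 11 windows and in 1.86% of all promoters. A match is a description of letters, not a bound site, and counts per gene cannot separate the starts of Zap70. The RUNX letters TGTGGT, or ACCACA on the other strand, stood in 3 of 11 windows and in 16.8% of all promoters. The ETS-type letters CAGGAA, or TTCCTG, stood in 9 of 11 windows and in 30.6% of all promoters. They too were added after the sequences were seen, so their count is no test. TATAAA, or TTTATA, stood in 0 of 11 windows and in 13.6% of all promoters.

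The wider pathway was followed in 104 further genes, of which 103 were tested. These genes were listed with earlier results of these data known. Their shares called, set beside those of all tested genes, are therefore a description and not a test of the list. Between OFF and ON none of the 103 was called, against 1.03% of all tested genes. DESeq2 called 9 of them, where it called 3.21% of all tested genes. In edgeR 28 had an unadjusted p under 0.05, against 19.1% of all tested genes. Among the nearest to the threshold were the costimulatory receptor Cd28, with a log2 fold change of 0.82 (adjusted p = 0.0524), and the adaptor Sit1, with -0.83 (adjusted p = 0.0532). In ON against WT 33 rose and 7 fell, 38.8% of the 103 against 14.8% of all tested genes, of which 9.68% rose and 5.16% fell. In OFF against WT 22 rose and none fell, 21.4% against 6.83%, of which 4.7% rose and 2.14% fell. Many calls depended on single libraries: 30 of the 40 in ON against WT and 17 of the 22 in OFF against WT were lost without WT library 1 or WT library 2, and 10 and 5 were lost under no alternative. Some calls in ON against WT were also lost without an ON library. Among them were those of Trdc, Ptprj, Skap2 and Inpp5d without ON library 1. Without ON library 2 they included those of Trbc1, Cd28, Ptpn6, Themis, Sit1, Sos1, Nfatc1, Inpp5d, Ubash3b and Lat2. In OFF against WT the calls of Trdc, Cd8a, Cd5, Ptprcap, Ptprj, Unc119 and Skap2 were lost without OFF library 2. So were those of Dok2, Tec, Nfatc1, Sla, Fcer1g and Blnk. Those of Skap2 and Tec were lost without OFF library 1 as well.

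Among the constant regions of the antigen receptor, Trac and Trbc2, of the alpha and beta chains, were not called in ON against WT. Their log2 fold changes were -0.08 and -0.06, with adjusted p of 0.798 and 0.807. Of the 7 constant regions 4 rose there, where 9.68% of all tested genes rose. Trbc1, a constant region of the beta chain, had 168 and 172 CPM in OFF, 206 and 272 CPM in ON, and 164 and 165 CPM in WT, and rose in ON by a log2 fold change of 0.54 ± 0.14 (SE; adjusted p = 0.0328). The other 3 belong to the gamma and delta chains: Trdc, with 1.01, Tcrg-C1, with 2.06, and Tcrg-C2, with 3.45, all at most 10.4 CPM in any library, and of these Trdc also rose in OFF against WT. Such genes are also the listed markers of gamma-delta T cells, of which 1 of 4 was called higher in OFF and 3 of 4 in ON than in WT, with sums of 12.1 to 14.7 CPM in OFF, 13.1 to 25.3 CPM in ON and 5.06 to 7.0 CPM in WT. Their part in the result was not tested.

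Of 8 other coreceptors and costimulatory receptors, Ctla4, the inhibitory counterpart of CD28, rose most among those above 10 CPM, with 19.2 and 27.8 CPM in OFF, 34.8 and 23.2 CPM in ON, and 4.96 and 5.0 CPM in WT, at log2 fold changes of 2.24 ± 0.27 in OFF (adjusted p = 0.00168) and 2.54 ± 0.26 in ON (adjusted p = 5.21e-04), each against WT. Cd5, an inhibitory receptor whose level follows receptor signalling, rose in OFF by 0.57, and the adhesion receptor Cd2 rose in ON by 0.51, each against WT. Cd8a rose in both. Cd28 fell in ON against WT by 0.60 on the log2 scale (adjusted p = 0.0359), with 127 and 109 CPM in ON, against 199.9 and 159 CPM in WT.

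Of 10 further Src kinase genes and regulators, Fyn, the second Src kinase of T cells, had 368 and 366 CPM in OFF, 439 and 450 CPM in ON, and 308 and 317 CPM in WT, and rose in ON against WT by a log2 fold change of 0.51 ± 0.11 (SE; adjusted p = 0.0156), a size like that of Zap70. Ptprcap, which associates with the phosphatase CD45, rose by 0.57 in OFF and 1.00 in ON, each against WT. Ptprj, a receptor phosphatase, and Unc119, which binds lipid-modified Src kinases, rose in both, and the phosphatase Ptpn6 (SHP-1) rose in ON, with a log2 fold change of 0.69. Pag1, the membrane anchor of the LCK inhibitor CSK, fell in ON against WT by 0.64 on the log2 scale.

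Of 19 adaptors 6 rose and 1 fell in ON against WT, where 9.68% of all tested genes rose and 5.16% fell. Fyb (ADAP), which binds SLP-76, had 1033 and 841 CPM in OFF, 1022 and 1182 CPM in ON, and 737 and 741 CPM in WT, and rose in ON by a log2 fold change of 0.58. Dok2, Sh3bp2 and Skap2 rose in both RBPJind groups, and the transmembrane adaptors Lax1 and Sit1 rose in ON. The call of Skap2 was lost under 12 of 17 alternatives in ON and 11 of 18 in OFF, each against WT. Themis, which acts in thymic selection, fell in ON by 0.42 on the log2 scale. Of 11 Tec kinases, phospholipases and Vav proteins, Vav2, Tec and Plcg2 rose in both groups. Plcg2, the phospholipase used by B cells and myeloid cells, had 13.9 and 16.5 CPM in OFF, 15.3 and 11.6 CPM in ON, and 1.61 and 2.79 CPM in WT.

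Of 18 genes of second messengers and Ras, Nfatc1, a calcium-dependent transcription factor, rose in both groups, with a log2 fold change of 0.60 in OFF and 0.39 in ON, and the Ras activator Sos1 fell in ON by 0.56 on the log2 scale. Of 7 genes of phosphoinositide 3-kinase signalling, the phosphatase Inpp5d (SHIP-1) rose in ON by 0.37 (adjusted p = 0.0490). This call of Inpp5d was lost under 15 of 17 alternatives. The regulatory subunit Pik3r1 fell in ON by 0.60 on the log2 scale. Of 10 tested ligases and negative adaptors, Sla and Ubash3b rose in both groups, and Socs3, an inhibitor of cytokine signalling, rose in ON with a log2 fold change of 1.42 (adjusted p = 0.00540).

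The related kinases and ITAM chains of other blood cells moved most. Of these 10 genes 7 rose and 1 fell in ON against WT, where 9.68% of all tested genes rose and 5.16% fell. In OFF against WT 6 rose, where 4.7% of all tested genes rose and 2.14% fell. Syk, the relative of Zap70 used by B cells and myeloid cells, had 18.8 and 19.0 CPM in OFF, 11.2 and 17.3 CPM in ON, and 3.11 and 3.90 CPM in WT and rose by log2 fold changes of 2.43 ± 0.26 in OFF (adjusted p = 9.58e-04) and 2.02 ± 0.26 in ON (adjusted p = 0.00166). The Src kinases Lyn and Fgr and the ITAM chains Tyrobp and Fcer1g rose in both groups, the adaptor Blnk in OFF, and the adaptor Lat2 in ON. Yes1 fell in ON, at 0.153 and 0.149 CPM, against 2.09 and 1.74 CPM in WT. Some markers of other blood cells were higher as well: 7 and 5 of 8 B cell markers were called higher in OFF and in ON than in WT, with sums of 200.4 to 251.7 CPM in OFF, 200.7 to 234 CPM in ON and 30.2 to 37.7 CPM in WT, mostly Cd74. Of 6 natural killer markers 1 was called higher in OFF and 2 in ON, with sums of 46.9 to 60.6 CPM in OFF, 51.5 to 101 CPM in ON and 9.65 to 17.8 CPM in WT, mostly Eomes. Not all natural killer markers were higher: the receptor gene Klrd1 averaged 3.67 CPM in OFF, 2.12 CPM in ON and 5.51 CPM in WT, and Ncr1 and Klrb1c stood at or below 1.32 CPM in every library. Of 6 myeloid markers 1 and 3 were called, with sums of 29.8 to 44.6 CPM in OFF, 30.8 to 32.2 CPM in ON and 15.4 to 15.9 CPM in WT, and of 6 dendritic cell markers 3 and 3, with sums of 35.9 to 43.0 CPM in OFF, 32.6 to 41.2 CPM in ON and 5.52 to 8.49 CPM in WT. No gene of these 4 lists was at 0 throughout a group except 1 dendritic marker, Xcr1, in ON. Erythroid markers summed to at most 1.98 CPM and platelet markers to at most 4.33 CPM in any library, and none was called. The part of such cells in these results was not tested.

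**Figure D5:**
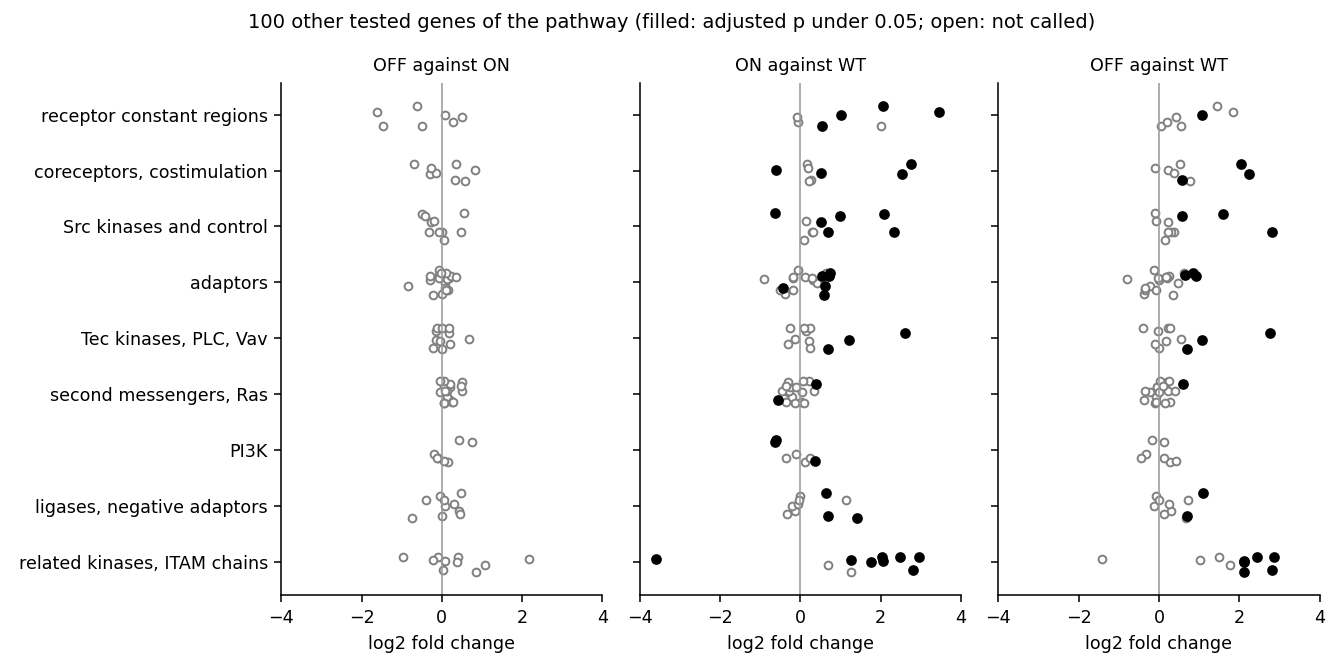
Log2 fold change of 100 of the other tested pathway genes (horizontal axes), by list (rows), in OFF against ON, ON against WT and OFF against WT; filled points are called by edgeR and open points are not. No point is filled in OFF against ON, 40 are in ON against WT and 22 in OFF against WT, with the widest spread among related kinases and ITAM chains.

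Genes with the most similar profile were sought among 3214 tested genes with a mean of at least 50 CPM, by the distance between log2 CPM centred over the 6 libraries. Cd3g was nearest to Aamp (distance 0.194) and Zmat2 (0.232), and Aamp had 115 and 108 CPM in OFF, 130.0 and 231 CPM in ON, and 101 and 107 CPM in WT. These genes share with Cd3g the high value in ON library 2. Zap70 was nearest to Topbp1 (0.0683) and Tacc1 (0.0753), and Topbp1 had 104 and 104 CPM in OFF, 127 and 118 CPM in ON, and 84.5 and 83.5 CPM in WT, in the same order of groups as Zap70. Lat was nearest to Smc1a and Mbd3, Lck to Lta4h and Anapc2, Lcp2 to Gnb2 and Nedd9, Cd4 to Rpn2 and Fli1, Cd3d to Maea and Eif4b, Cd3e to Vcp and Prkar1a, and Cd247 to Brap and Ppp1r18. The 9 genes were not each other's nearest: another of the 9 stood among the 100 nearest genes only for Lck, where Cd3d was at rank 65. Over 6 libraries such likeness is a description only.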

How the data were processed

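Per the labels' protocols, sorted cells were placed in Trizol and the RNA was sequenced on a NovaSeq instrument and aligned to GRCm38; R 3.6.2 and edgeR stand in the submitters' processing notes. Not given in the sources used here are the aligner, the counting program, whether strand was used, and the gene annotation. The authors deposited raw whole-number counts per gene, with 5 summary rows that entered neither the library sizes nor the tests. Its columns sum to between 41169763 and 50779120 reads, and genes hold 33.7% to 46.9% of them. That share was 36.4% and 39.0% in OFF, 43.2% and 46.9% in ON, and 33.7% and 35.3% in WT. Reads not aligned made up 22.1% and 24.3% in OFF, 14.8% and 9.34% in ON, and 21.8% and 18.8% in WT. The part of these differences between groups in the results was not tested.

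Of 47729 identifiers 47310 were found in the GRCm38 annotation GENCODE M21. Genes were kept by filterByExpr (minimum count 10, minimum total 15), scaled by TMM and tested with edgeR 4.0.16 in R 4.3.3 (quasi-likelihood, robust), with all 6 libraries in 1 fit and 3 residual degrees of freedom, adjusted by Benjamini-Hochberg. Alternatives were other scalings and filters, DESeq2 1.42.0, limma-voom 3.58.1, the older quasi-likelihood method, fewer libraries, protein-coding genes only, an adjusted p under 0.01, a block for replicate number and fits that left out 1 library. The steps were tested on simulated counts.

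The 9 genes and all lists were chosen with earlier results of these data known. Named beyond the 9 are pathway genes called in any comparison, Rbpj and Dtx1. The most abundant marker of a list and the 2 genes of most similar profile are named too. Mki67, Xcr1, Foxp3, Il2ra, Trbc2 and the genes that differed between the ON libraries were named after their values were seen. Trac, Bcl11b, Klrd1, Ncr1 and Klrb1c are also named outside these rules. Lengths are unions of annotated exons. Besides Cd247, exons of Lcp2 and of Cd3e overlap a gene on the opposite strand by 282 and 135 bases. Promoter windows were read from RefSeq tables and searched on both strands. No protein sequence was used here, and a few pathway genes that the naming rule covers are not reported here.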

Additional observations from a re-analysis of the deposited data

How the results depend on the processing

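Of the 9 genes, Cd4, Cd3d, Cd3e, Cd247, Lck, Zap70, Lat and Lcp2 were called between OFF and ON under none of the alternatives run, and Cd3g only without ON library 1; in OFF against WT none of the 9 was called under any. Directions near 0 turned. Cd4 between OFF and ON was -0.015 under a minimum mean CPM of 1 and -0.059 to 0.085 over leave-one-out fits, which gave -0.25 to 0.040 for Cd3e, -0.31 to 0.0096 for Lck and -0.13 to 0.022 for Lcp2. Cd247 in OFF against WT was -0.045 with upper quartile scaling, -0.024 under a minimum mean CPM of 1, -0.014 with 4 libraries and -0.019 with protein-coding genes. The causes were not tested.

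In ON against WT the 2 calls among the 9 became 1 with upper quartile scaling and 1 with protein-coding genes, both without Lat, 4 with DESeq2, 0 at an adjusted p under 0.01 and 0 to 4 without 1 library (0 without WT library 1 or WT library 2, 1 without ON library 2, 4 without ON library 1 or OFF library 2). Between OFF and ON 0 to 1 of the 9 were called without 1 library. Of all genes, 162 called between OFF and ON became 506 with DESeq2, 58 with 4 libraries, 77 with protein-coding genes, 38 at an adjusted p under 0.01 and 67 to 619 without 1 library. In ON against WT 2342 became 758 at that threshold and 368 to 2397 without 1 library, and in OFF against WT 1078 became 584 with limma-voom, 298 at that threshold and 223 to 1602 without 1 library. ON against WT had 1527 genes higher and 815 lower, against 1272 and 1091 with upper quartile scaling. OFF against ON had 95 higher and 67 lower, against 76 and 81 under a minimum mean CPM of 1, 245 and 261 with DESeq2 and 35 and 42 with protein-coding genes. No scaling alternative moved the median of all genes by over 0.1 on the log2 scale.

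Of the pathway genes, 0 called between OFF and ON became 1 with RLE scaling, 1 without a filter, 1 under a minimum mean CPM of 1, 9 with DESeq2 and 0 to 8 without 1 library. In ON against WT 40 became 15 at an adjusted p under 0.01 and 10 to 43 without 1 library, and in OFF against WT 22 became 8 and 6 to 29. With the longest transcript as length, ratios to Cd3e were 1.48 for Lck, 1.45 for Cd4, 1.02 for Lat, 0.720 for Cd3d, 0.763 for Cd247, 0.463 for Lcp2 and 0.459 for Zap70. Of the 18 genes of most similar profile 7 were shared when Pearson's correlation was used.

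The labels give equal replicate numbers, but deviations of same-numbered libraries had correlations of -0.198 for OFF and ON, 0.0771 for ON and WT and -0.212 for OFF and WT, so the numbers were not taken as pairs. With a replicate block 60 genes were called between OFF and ON, 1441 in ON against WT and 663 in OFF against WT, and 0 of the 9 in ON against WT, with adjusted p of 0.0552 for Zap70 and 0.100 for Lat. A crossed block, added after the data were seen, gave 1210 genes and 18 pathway genes in OFF against ON and 2082 and 37 in OFF against WT.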
